A study of Mus musculus with 10 samples.

Results

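Interferon-stimulated genes were examined in mouse regulatory T cells (Treg cells, the CD4 T cells that restrain immune responses) sorted by the presence of Helios, a zinc finger transcription factor encoded by Ikzf2. The 40 genes were taken by symbol from a list, with no threshold on their values, and all 40 had a row among the 13252 genes of the deposited table. The list was chosen with earlier results of these data known, so its share of called genes is a description and not a test. The 5 Helios+ libraries came from CD4+RFP+GFP+ cells and the 5 Helios- libraries from CD4+RFP+GFP- cells. The labels tie GFP to Helios and do not say what RFP reports, nor the strain, age or treatment of the mice. The series' design text speaks of wild-type and knockout cells, but the labels of the single samples name sorted populations, so every difference below is described as one between sorted cells. Whether a group's 5 libraries are from 5 mice is not stated, so each p-value rests on variation among libraries that could be purely technical.

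Type I interferons bind the receptor pair Ifnar1 and Ifnar2, whose kinases Jak1 and Tyk2 activate latent transcription factors. With Irf9 these form the complex ISGF3, which binds the interferon-stimulated response element (ISRE) in the promoters of target genes, while interferon gamma acts through gamma-activated sites (GAS). The products block virus entry, cut or edit viral RNA, stall translation, sense foreign nucleic acid and limit the response itself, and in mice type I interferon acts on Treg cells directly.

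Reads over the 13252 genes of the table, recovered as described in the processing summary, numbered 4872348 to 6948692 per library. Reads outside these genes are not counted. At this depth the counts of low genes limit precision more than those of abundant ones. Ikzf2, the gene behind the sort, ranged from 9667 to 10906 normalized counts in Helios+ and from 418.2 to 572.2 in Helios- libraries. The defining T cell genes Cd3e and Cd4 and the Treg gene Foxp3 had at least 2283 normalized counts in every library. Some markers of other cells were present at low level in both groups. The 2 CD8 T cell markers, Cd8a and Cd8b1, summed to 311 to 377 normalized counts in Helios+ and 347 to 413 in Helios- libraries. Sums for conventional dendritic cells, NK cells and neutrophils were at most 118 in any library. The summed level of 5 B cell markers was 1056 to 1430 normalized counts in Helios+ and 1177 to 1605 in Helios- libraries. That of 7 genes of plasmacytoid dendritic cells, which are strong producers of type I interferon, was 673 to 826 in Helios+ and 669 to 817 in Helios- libraries. Of these, Klk1 reached 0 in both groups and the other 6 were present in every library, led by Irf8 with a mean of 317 in Helios+ and 259 in Helios- libraries. The lowest of the 6 was Siglech, with a mean of 26.6 in Helios+ and 25.7 in Helios- libraries. Bst2 is in both this list and the 40, and Irf8 is also in the list of signalling genes below. Whether other cells in the samples expressed these genes was not tested, so the sum does not measure plasmacytoid dendritic cells. For monocytes and macrophages, 6 of 7 markers were in the table, with a sum of 265 to 507 in Helios+ and 195 to 330.3 in Helios- libraries. Within it, Csf1r had 53.5 to 71.3 in Helios+ and 28.6 to 44.5 in Helios- libraries, without overlap. Lyz2 averaged 188 in Helios+ and 142 in Helios- libraries. Itgam averaged 48.5 in Helios+ and 52.1 in Helios- libraries, and Cd68 25.3 and 31.2, so both went the other way, with overlap. Cd14 and Fcgr1 reached 0 in both groups. Their part in the results was not tested. In these bulk samples, fewer cells of a type and less RNA per cell cannot be told apart. Libraries of the 2 groups with equal replicate numbers were taken as pairs. Those with the number 3 stood apart from the others for many of these genes, so counts are also given without them.

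The interferon-stimulated genes were divided, with more members lower than higher in Helios+ cells. Every member had a mean of at least 10 normalized counts and was tested. Of the 40, limma called 15 (37.5%, against 24.8% of all 10718 genes tested) at a Benjamini-Hochberg adjusted p under 0.05. Lower were 11 members, or 27.5%, where 10.7% of all genes were lower. Higher were 4, or 10%, where 14.1% of all genes were higher. The median log2 change over the 40 was −0.17, and over all genes tested −0.02, on the scale of log2(normalized count + 1), Helios+ minus Helios-. With the replicate number as a block, 26 members were called (65.0%, against 37.3% of all genes), of which 21 members were lower (52.5%, background 18.5%) and 5 higher (12.5%, background 18.9%). All 15 calls were also made with the block, and 11 further members were called only there. A log2 change of at least 1 in size was seen in 2 members, Oas1a and Oas2 (5.00%, background 6.52%). The groups did not overlap for 9 lower members (22.5%, background 8.37%) and 2 higher ones (5.00%, background 11.2%). Within the 5 pairs, 19 members were lower in every pair (47.5%, background 20%) and 6 were higher in every pair (15.0%, background 19.8%). Without both replicate 3 libraries, 15 members were called lower (background 9.91%) and 3 higher (background 13.5%). Without both replicate 1 libraries, 11 were lower (background 10.8%) and 4 higher (background 14%).

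**Figure D1:**
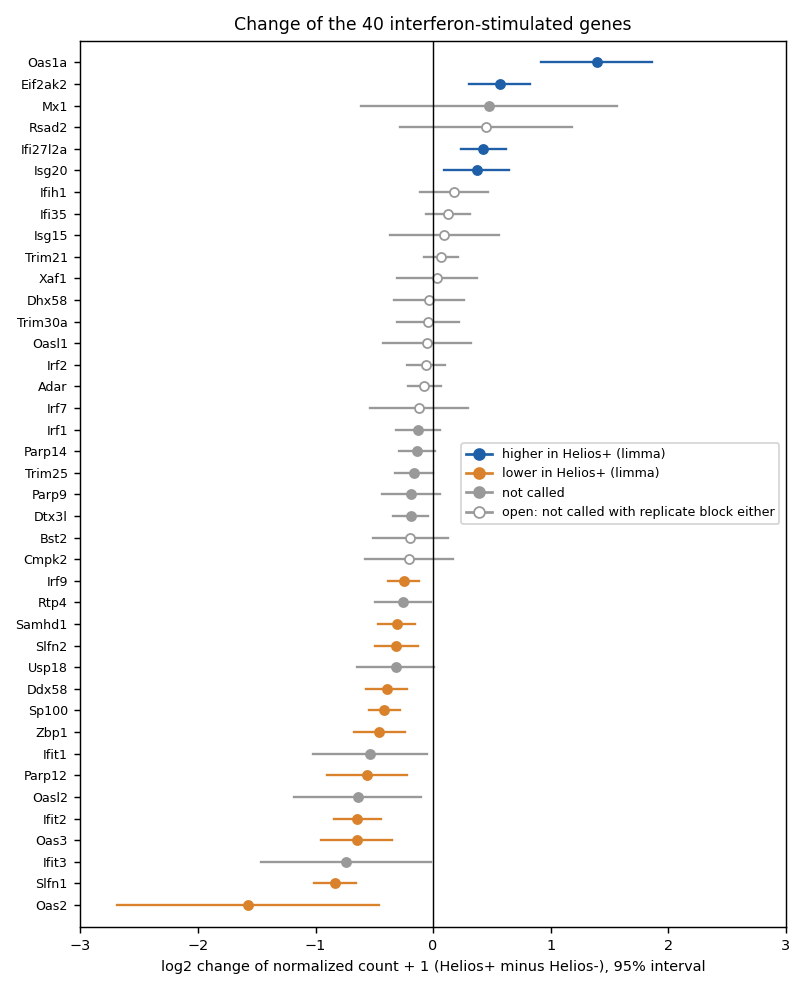
Change in log2(normalized count + 1) for each of the 40 genes (Helios+ minus Helios-), ordered by size, with a point for the limma estimate and a line for its 95% interval. Filled points were called with the replicate block and open ones were not. The changes run from 1.39 for Oas1a at the top to −1.58 for Oas2 at the bottom, and 29 of 40 lie below 0.

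Promoter sequences, from RefSeq on the mouse build GRCm38.p6, were found for 31 of the 40 members and read over 250 bases before to 50 bases after each annotated start. The ISRE core TTTCNNTTTC was searched on both strands, so also as GAAANNGAAA, with overlapping matches counted, and the GAS core TTCNNNGAA reads the same on both strands. At least 1 window held the ISRE core in 13 of these 31 members (41.9%), against 3.99% of all 27025 genes in the promoter table. For the GAS core the counts were 10 of 31 (32.3%) and 9.55%. Among members with a promoter, the ISRE core was in 2 of 3 called higher (Oas1a and Eif2ak2), in 2 of 9 called lower (Ddx58 and Oas3) and in 9 of 19 not called. The GAS core was in 3 of 3 called higher, 2 of 9 called lower and 5 of 19 not called. A match is a description of letters and not evidence of a binding site, and no match says only that these letters are not in the window. The 4 stretches below are the 160 bases before the start of members whose levels are compared below, a pair of neighbours with like arrangements and a pair that moved in opposite directions. Capitals mark the ISRE core.
Ifit1 (chr19:34640729-34640888, plus strand): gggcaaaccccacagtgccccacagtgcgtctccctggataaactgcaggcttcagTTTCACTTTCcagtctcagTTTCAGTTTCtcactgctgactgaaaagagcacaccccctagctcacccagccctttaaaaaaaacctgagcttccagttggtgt
Ifit3 (chr19:34583369-34583528, plus strand): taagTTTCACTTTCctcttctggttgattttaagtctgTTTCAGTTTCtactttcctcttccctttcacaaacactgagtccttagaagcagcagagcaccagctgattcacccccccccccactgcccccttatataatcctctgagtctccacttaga
Oas1a (chr5:120907526-120907685, minus strand): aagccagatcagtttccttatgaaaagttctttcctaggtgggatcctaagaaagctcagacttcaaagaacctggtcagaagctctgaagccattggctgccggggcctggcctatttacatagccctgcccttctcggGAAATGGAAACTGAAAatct
Oas3 (chr5:120777660-120777819, minus strand): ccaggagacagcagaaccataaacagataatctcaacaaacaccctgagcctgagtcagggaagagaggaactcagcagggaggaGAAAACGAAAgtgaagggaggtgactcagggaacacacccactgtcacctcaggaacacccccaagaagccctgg
Ifit1 and Ifit3 each held 2 separate cores, with first bases 104 and 85 bases before the start in Ifit1 and 156 and 122 bases before it in Ifit3. In Oas1a 2 cores overlapped, with first bases 20 and 14 bases before the start, and Oas3 had 1, 75 bases before it. So the promoter of the synthetase that rose and that of a synthetase that fell both held the core.

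The oligoadenylate synthetases held both the largest increase and the largest decrease among the 40. These enzymes sense double-stranded RNA and make the messenger that activates the nuclease RNase L. Oas1a (chromosome 5, 120896256 to 120907521, minus strand; GENCODE release M21 on GRCm38, as for all positions) had 161, 136, 70.9, 146 and 156 normalized counts in Helios+ replicates 1 to 5, against 44.5, 36.0, 67.7, 44.5 and 55.5 in Helios- replicates 1 to 5. Every Helios+ library was above every Helios- library, but only just so for replicate 3, whose libraries had 70.9 in Helios+ and 67.7 in Helios- cells. The means were 134 ± 36.7 (Helios+) against 49.6 ± 12.3 (Helios-) normalized counts (SD, n = 5 each), a 2.70-fold difference and a change in log2 of 1.39 ± 0.22 (± SE, limma adjusted p = 0.000239). The change was 1.72 without both replicate 3 libraries. The related genes Oas1g and Oas1b lie in the same cluster. Of the 50-base stretches of Oas1a transcripts, 57.6% also occur in another gene, and the share with Oas1b alone was not worked out. Oas1a reads may thus have been split or assigned between copies. Oas1b, not called, had 138, 99.5, 57.3, 94.2 and 76.5 normalized counts in Helios+ replicates 1 to 5, against 184, 95.3, 42.6, 127 and 104 in Helios- replicates 1 to 5. Its lowest library in each group was replicate 3.

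Oas2 (chromosome 5, 120730333 to 120749853, minus strand), a neighbour of Oas1a, went the other way. It had 41.9, 36.0, 8.55, 37.9 and 22.0 normalized counts in Helios+ replicates 1 to 5, against 189.8, 66.7, 28.4, 103 and 79.8 in Helios- replicates 1 to 5. Each Helios+ library was below its Helios- partner, although the groups overlap at Helios- replicate 3, which at 28.4 was far below the rest of its group. Oas2 fell by 1.58 on the log2 scale (SE 0.51; limma adjusted p = 0.0411), with means 3.20-fold lower in Helios+ cells. Leaving out any of 6 single libraries ended that call, with adjusted p up to 0.101 without Helios- replicate 1, while the replicate block gave an adjusted p of 2.72e-07. Oas3 (chromosome 5, 120753098 to 120777661, minus strand) had 161, 109, 101, 127 and 144 normalized counts in Helios+ replicates 1 to 5, against 255, 164, 181, 204 and 201 in Helios- replicates 1 to 5. The groups did not overlap, though Helios+ replicate 1 came close to Helios- replicate 2, and log2 changed by −0.65 ± 0.14 (± SE, limma adjusted p = 0.00303). The 2 synthetase-like genes, Oasl1 and Oasl2, lie elsewhere on chromosome 5. Oasl2 had 79.6, 53.5, 30.8, 58.3 and 60.3 normalized counts in Helios+ replicates 1 to 5, against 109, 76.2, 53.5, 79.5 and 125 in Helios- replicates 1 to 5. Each pair was lower in the Helios+ library although the groups overlap, a change in log2 of −0.64 ± 0.25 with an adjusted p of 0.0809 in limma and 0.000745 with the block, which called it lower. Oasl1 was not called in either fit, at 43.2 ± 7.48 (Helios+) against 44.8 ± 7.68 (Helios-) normalized counts (SD, n = 5 each; limma adjusted p = 0.869, 95% interval of the log2 change −0.42 to 0.32). So 1 of the 5 family members was higher and 2 were lower, or 3 lower with the block.

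**Figure D2:**
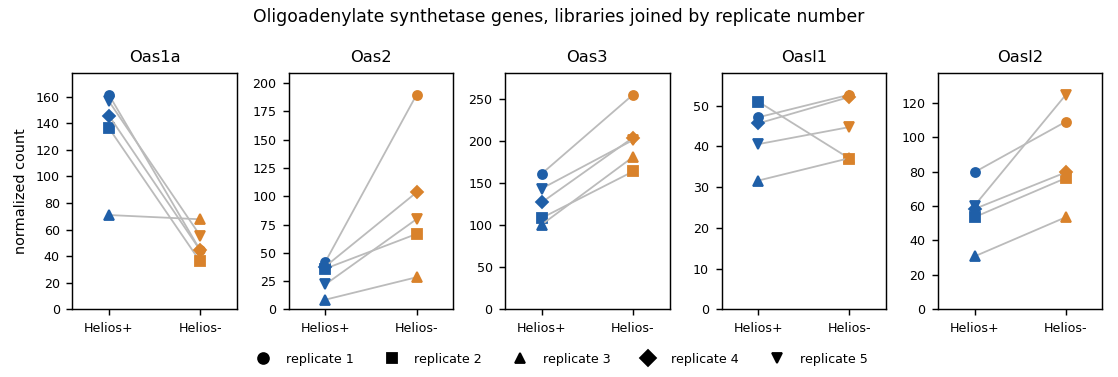
Normalized counts of the 5 oligoadenylate synthetase genes in each library, with lines joining the Helios+ (left) and Helios- (right) library of the same replicate number. Oas1a runs down to the right in every pair but is nearly level in replicate 3, while Oas2, Oas3 and Oasl2 run up in every pair.

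The Ifit proteins bind viral RNA or its ends and block its translation, and these 3 genes lie within one stretch of chromosome 19. Ifit2 (chromosome 19, 34550694 to 34576419, plus strand) had 359, 406, 408, 422 and 474 normalized counts in Helios+ replicates 1 to 5, against 634, 670.0, 526, 686 and 732 in Helios- replicates 1 to 5. The highest Helios+ library lay below the lowest Helios- library. It fell by 0.65 on the log2 scale (SE 0.09; limma adjusted p = 8.74e-05). Ifit1 (chromosome 19, 34640871 to 34650009, plus strand) had 360.5, 234, 159, 312 and 344 normalized counts in Helios+ replicates 1 to 5, against 422, 376, 272, 432 and 497 in Helios- replicates 1 to 5. It was lower in Helios+ cells in all 5 pairs, but the groups overlap at Helios- replicate 3, and the difference in log2 of −0.53 ± 0.22 was not called (± SE, limma adjusted p = 0.106) without the block (adjusted p = 6.6e-06). Without both replicate 3 libraries the adjusted p was 0.0144. Ifit3 had 107, 90.3, 37.6, 129 and 136 normalized counts in Helios+ replicates 1 to 5, against 197, 165, 89.6, 163 and 180.0 in Helios- replicates 1 to 5. Replicate 3 was again the lowest of each group, all 5 pairs pointed down, and the change of −0.74 ± 0.33 had a limma adjusted p of 0.131, 3.98e-05 with the block and 0.00367 without both replicate 3 libraries. Of 26 alternative settings, only these 2 called Ifit3. Of the 50-base stretches of Ifit3, 51.2% also occur in its copy Ifit3b, so its counts are uncertain.

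Among the other antiviral effectors, Eif2ak2 and Isg20 were higher and Zbp1 and Samhd1 lower. Eif2ak2 encodes PKR, the kinase that halts translation on double-stranded RNA. It had 820.5, 685, 598, 767 and 789 normalized counts in Helios+ replicates 1 to 5, against 643, 440.3, 395, 524 and 487 in Helios- replicates 1 to 5. The groups overlap at 1 library, Helios- replicate 1, yet every pair was higher in Helios+ cells, by a change in log2 of 0.57 ± 0.12 (± SE, limma adjusted p = 0.00265). Isg20, an RNA exonuclease, had 114, 114, 137, 134 and 159.9 normalized counts in Helios+ replicates 1 to 5, against 104, 105, 79.7, 121 and 99.3 in Helios- replicates 1 to 5. The ranges overlap, since Helios- replicate 4 lay above the 2 lowest Helios+ libraries. Isg20 rose by 0.37 ± 0.13 (± SE, limma adjusted p = 0.0495), a call that leaving out any of 6 single libraries ended (adjusted p up to 0.133), as did quantile normalization (adjusted p = 0.107).

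Zbp1, a sensor of Z-form nucleic acid that can trigger necroptosis, had 816, 750.2, 620.5, 835 and 788 normalized counts in Helios+ replicates 1 to 5, against 1153, 980.1, 837, 1107 and 1169.8 in Helios- replicates 1 to 5. No Helios+ library reached the lowest Helios- library, and Zbp1 fell by 0.46 on the log2 scale (SE 0.10; limma adjusted p = 0.00334). Samhd1, which depletes the nucleotides that viruses need for DNA synthesis, was the most abundant antiviral effector per kilobase of exon, at 765 normalized counts per kilobase in Helios+ and 949 in Helios- cells. Its libraries held 7273, 7455, 6855, 6601 and 6807 normalized counts in Helios+ replicates 1 to 5, against 9419, 9339, 8499, 7884 and 8294 in Helios- replicates 1 to 5. The groups did not overlap, and log2 changed by −0.31 ± 0.07 (± SE, limma adjusted p = 0.00525). Samhd1 was not called with quantile normalization (adjusted p = 0.115) or cyclic loess (adjusted p = 0.178).

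Mx1, a GTPase that traps viral nucleocapsids, was called only with the block. It had 136, 76.9, 41.0, 120.5 and 81.1 normalized counts in Helios+ replicates 1 to 5, against 141, 45.5, 19.7, 88.1 and 70.1 in Helios- replicates 1 to 5. Both groups were highest in replicate 1 and lowest in replicate 3. Its change of 0.48 ± 0.49 was not called (± SE, limma adjusted p = 0.546), while the block called it higher (adjusted p = 0.0152), with 4 of 5 pairs up. Without Helios- replicate 3 alone the unblocked change was 0.08, and without Helios- replicate 1 it was 0.78. For Rsad2 (viperin), which makes a chain-terminating nucleotide, all 5 pairs had the higher value in the Helios+ library, at 41.5 ± 12.6 (Helios+) against 31.4 ± 12.2 (Helios-) normalized counts (SD, n = 5 each), but the gene was not called in limma (adjusted p = 0.382) or with the block (adjusted p = 0.0598). Cmpk2, a nucleotide kinase gene beside Rsad2 on chromosome 12, had a log2 change of −0.20 with a 95% interval of −0.58 to 0.17. Bst2 (tetherin), which holds budding virus at the cell surface, had a change of −0.19 (−0.51 to 0.12), and Adar, which edits adenosines in double-stranded RNA, −0.07 (−0.21 to 0.07). None of these 3 was called in either fit.

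**Figure D3:**
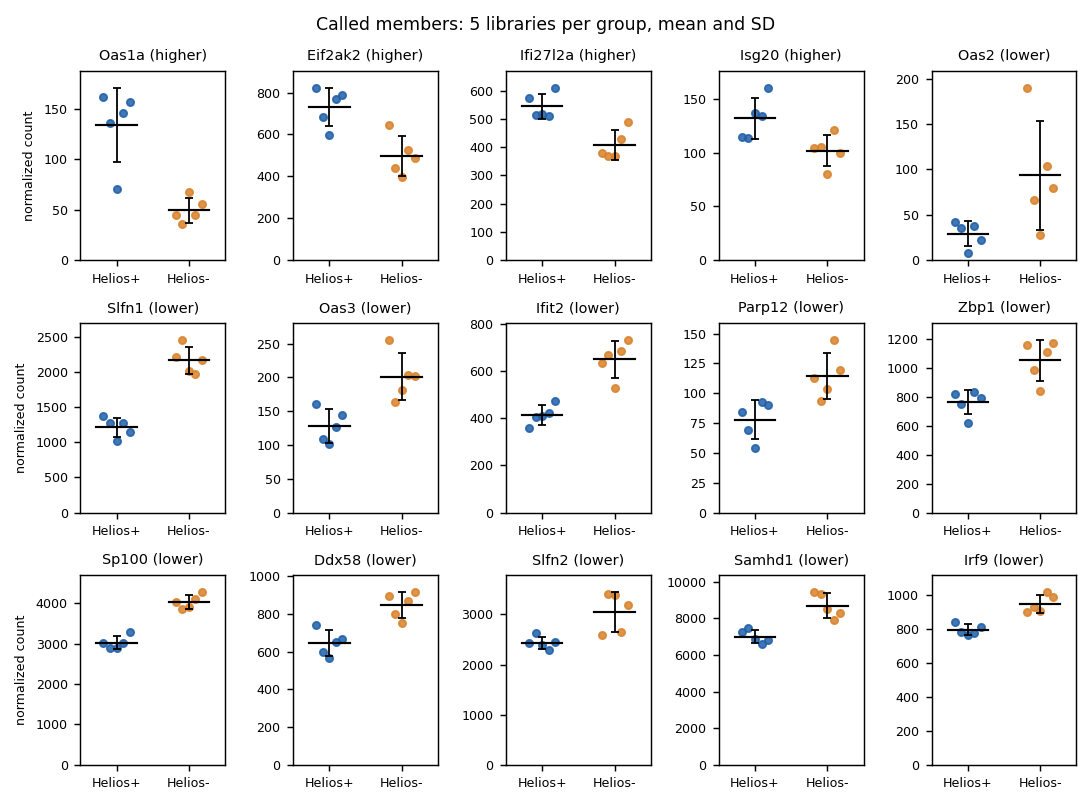
Normalized counts of the 15 members called by limma, shown as 1 point per Helios+ (left) or Helios- (right) library, and bars marking mean and SD. The 4 higher genes come first, led by Oas1a, and 11 lower genes follow, from Oas2 to Irf9.

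Of the 3 cytosolic RNA sensors, Ddx58 was the one called, in limma and with the block. Ddx58 (RIG-I), which detects the ends of viral RNA, had 743, 597, 567, 648 and 668 normalized counts in Helios+ replicates 1 to 5, against 895, 799, 750.4, 868 and 914 in Helios- replicates 1 to 5. Its highest Helios+ library, replicate 1, stayed just under the lowest Helios- library, and Ddx58 fell by 0.39 on the log2 scale (SE 0.08; limma adjusted p = 0.00214). It was also the most abundant of the 3 per kilobase, at 91.4 normalized counts per kilobase in Helios+ and 119.9 in Helios- cells. Ifih1 (MDA5), the sensor of long double-stranded RNA, had 342 ± 42.9 (Helios+) against 305 ± 62.9 (Helios-) normalized counts (SD, n = 5 each) and was not called (limma adjusted p = 0.385, and 0.0558 with the block). Dhx58 (LGP2), which modulates both, had a log2 change of −0.04 with a 95% interval of −0.34 to 0.26. The difference in response between the sensors was not tested.

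None of the 5 members grouped as ISG15 system and ubiquitin ligases was called by limma. Outside the 40, the Isg15-conjugating enzyme gene Ube2l6 was higher, at 81.5 ± 6.77 (Helios+) against 55.8 ± 6.43 (Helios-) normalized counts (SD, n = 5 each; limma adjusted p = 0.00449), and the ligase gene Trim56 lower, at 576 ± 29.8 (Helios+) against 742 ± 25.2 (Helios-) normalized counts (SD, n = 5 each; limma adjusted p = 0.000317). Isg15 itself, a ubiquitin-like modifier and a standard marker of interferon response, had 50.3, 37.6, 47.9, 62.2 and 64.9 normalized counts in Helios+ replicates 1 to 5, against 55.1, 47.6, 28.4, 66.7 and 52.6 in Helios- replicates 1 to 5. The ranges of the 2 groups cover each other almost fully, with a change in log2 of 0.09 ± 0.22 (± SE, limma adjusted p = 0.797, 95% interval −0.37 to 0.56). Usp18, which removes Isg15 and damps the type I receptor, had 244, 221, 148, 251 and 234 normalized counts in Helios+ replicates 1 to 5, against 286, 274, 196, 319 and 290.0 in Helios- replicates 1 to 5. Each Helios+ library was below its partner, and Usp18 was called lower with the block (adjusted p = 0.00157) but not without it (0.151). The ligase Trim25, which acts on RIG-I, had 928, 858, 714, 826 and 902 normalized counts in Helios+ replicates 1 to 5, against 969, 974, 849, 966 and 949.9 in Helios- replicates 1 to 5. It was likewise lower in all 5 pairs, with a change in log2 of −0.16 ± 0.08, and was called only with the block (adjusted p = 0.15 in limma and 0.0178 with the block). Trim21, an antibody receptor of the cytosol, and Trim30a were not called, at log2 changes of 0.07 (−0.08 to 0.21, 95% interval) and −0.04 (−0.31 to 0.22). Trim30a had 1214, 899.9, 795, 1077 and 932 normalized counts in Helios+ replicates 1 to 5, against 1249, 996, 789.7, 971 and 1063 in Helios- replicates 1 to 5, with wide overlap. It was the most abundant of this group per kilobase, at 239 normalized counts per kilobase in Helios+ and 247 in Helios- cells.

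Of the 4 genes of ADP-ribosylation, 1 was called lower by limma and all 4 with the block. Parp9, Parp14 and Dtx3l lie side by side on chromosome 16, and Parp9 and the ubiquitin ligase Dtx3l, whose proteins form a complex, share 9.40% and 8% of their exon bases with each other on opposite strands, so reads there can be told apart only if the counting used strand. Parp12, which lies on chromosome 6, had 83.8, 69.4, 53.8, 92.3 and 90.4 normalized counts in Helios+ replicates 1 to 5, against 112, 93.1, 104, 144 and 119.7 in Helios- replicates 1 to 5. The groups did not overlap, and Parp12 fell by 0.56 on the log2 scale (SE 0.16; limma adjusted p = 0.0176), a call that was lost without Helios- replicate 4 (adjusted p = 0.0556). Dtx3l had 1708, 1767, 1889.6, 1892 and 1944 normalized counts in Helios+ replicates 1 to 5, against 1872, 2028, 2269.6, 2246 and 2104 in Helios- replicates 1 to 5. It was lower in all 5 pairs, with a change of −0.19 ± 0.07 and a limma adjusted p of 0.0554, against 0.00168 with the block. Parp14 had 3283, 2898, 2749, 3149 and 3182 normalized counts in Helios+ replicates 1 to 5, against 3619.6, 3317, 3022, 3499 and 3303 in Helios- replicates 1 to 5. All 5 of its pairs were lower, with a change in log2 of −0.14 ± 0.07. Parp9 had 598, 485, 495, 585 and 648 normalized counts in Helios+ replicates 1 to 5, against 759, 587, 493, 679.8 and 698 in Helios- replicates 1 to 5. It was lower in 4 pairs and nearly level in replicate 3, with a change of −0.19 ± 0.11. Neither was called by limma (adjusted p = 0.194 and 0.266), and the block called both lower (adjusted p = 0.0147 and 0.017).

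Of the 4 interferon regulatory factors, only Irf9 was called by limma. Irf9, the DNA-binding subunit of ISGF3, had 842, 781, 765, 779 and 814 normalized counts in Helios+ replicates 1 to 5, against 901, 927, 904, 1017 and 989.8 in Helios- replicates 1 to 5. All Helios+ libraries were below all Helios- libraries within a narrow range, a change in log2 of −0.25 ± 0.06 (± SE, limma adjusted p = 0.00646), which missed the threshold without both replicate 4 libraries (adjusted p = 0.0555). Irf1, the activator induced by interferon gamma, had 1094, 1138, 1238, 1312 and 1099 normalized counts in Helios+ replicates 1 to 5, against 1144, 1132, 1462, 1445 and 1268 in Helios- replicates 1 to 5. The groups overlap and 4 of 5 pairs were lower, a change in log2 of −0.13 ± 0.09, with a limma adjusted p of 0.314 and 0.0462 with the block, which called it lower. It was the most abundant factor per kilobase, at 296 normalized counts per kilobase in Helios+ and 325 in Helios- cells. Irf7, the factor that amplifies type I interferon production, had 334, 236, 193, 281 and 259.6 normalized counts in Helios+ replicates 1 to 5, against 353, 286, 166, 322 and 313 in Helios- replicates 1 to 5. Replicate 3 was the lowest in both groups, and the change of −0.12 was not called (95% interval −0.54 to 0.30). Irf2, a repressor as well as activator of these genes, had a change of −0.06 (−0.22 to 0.10).

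Of the remaining 7 members, 3 were lower and 1 was higher. Slfn1, a Schlafen gene linked in mice to T cell quiescence, had 1371, 1276, 1020.4, 1278 and 1153 normalized counts in Helios+ replicates 1 to 5, against 2223, 2459, 2022, 1982 and 2171 in Helios- replicates 1 to 5. The groups were far apart, and Slfn1 fell by 0.84 on the log2 scale (SE 0.08; limma adjusted p = 2.34e-06), the smallest p among the 40. Slfn2, whose loss in mice breaks T cell quiescence, was the most abundant member per kilobase, at 1463 normalized counts per kilobase in Helios+ and 1829 in Helios- cells. Its libraries held 2424, 2625, 2397, 2287 and 2441 normalized counts in Helios+ replicates 1 to 5, against 2596, 3399.7, 3395, 2640.4 and 3190.2 in Helios- replicates 1 to 5. Helios- replicate 1 reached into the Helios+ range, and Helios- replicate 4 lay just above it, while log2 changed by −0.31 ± 0.09 (± SE, limma adjusted p = 0.0136). Slfn2 missed the threshold with quantile normalization (adjusted p = 0.0525), with cyclic loess (adjusted p = 0.0532), and without both libraries of replicate 2 (0.0501) or of replicate 5 (0.0771). Other Schlafen genes of the same cluster, not members of the list, went both ways. Slfn5 was lower, at 1041 ± 109 (Helios+) against 1758 ± 213 (Helios-) normalized counts (SD, n = 5 each; limma adjusted p = 1.53e-05), and Slfn9 higher, at 188 ± 30.0 (Helios+) against 115 ± 15.3 (Helios-) normalized counts (SD, n = 5 each; limma adjusted p = 0.000573).

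Sp100, a protein of nuclear bodies that silences viral DNA, had 3025, 2896, 2901, 3024 and 3280.0 normalized counts in Helios+ replicates 1 to 5, against 4027, 3848, 3901, 4097 and 4269.5 in Helios- replicates 1 to 5. Its spread within groups was among the smallest of the 40 genes, with pair differences of −0.44 to −0.38 on the log2 scale. Sp100 fell by 0.41 without overlap of the groups (SE 0.06; limma adjusted p = 0.00013). Ifi27l2a, a small mitochondrial protein gene and 1 of the 4 members that were higher, had 574, 514, 517, 512 and 609.6 normalized counts in Helios+ replicates 1 to 5, against 381, 368, 368, 430.1 and 490.5 in Helios- replicates 1 to 5. The groups did not overlap, and it rose by 0.43 ± 0.09 (± SE, limma adjusted p = 0.00237). Rtp4, a chaperone of receptors, had 166, 163, 149, 186 and 207 normalized counts in Helios+ replicates 1 to 5, against 227, 189, 180.2, 197 and 245 in Helios- replicates 1 to 5. All 5 pairs were lower, with a change in log2 of −0.25 ± 0.11, and Rtp4 was called lower only with the block (adjusted p = 0.119 in limma and 0.0219 with the block). Xaf1, an antagonist of the apoptosis inhibitor XIAP, and Ifi35 were not called, with log2 changes of 0.03 (−0.30 to 0.37, 95% interval) and 0.13 (−0.06 to 0.31). In all, 14 members were called in neither fit, with limma adjusted p of 0.325 to 0.908.

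Many of the 40 genes moved with the replicate number in both groups. The lowest library of both groups was replicate 3 for 17 members (42.5%), against 12.1% of all genes tested, among them Oas2, Mx1, Rsad2, Ifit1, Ifit3, Irf7 and Usp18. The highest was replicate 1 in both groups for 10 members (25.0%, against 13.3% of all genes). The median deviation of the 40 from their own group's mean was −0.23 in Helios+ and −0.20 in Helios- replicate 3 on the log2 scale, and 0.14 and 0.11 in replicate 1 of the same groups. For all genes these medians lay between −0.01 and 0.02. What the numbers stand for (a mouse, a sort or a day) is not given in the labels. Leaving out Helios+ replicate 3 alone brought the unblocked log2 change to −0.34 for Ifit1, −0.43 for Ifit3, −0.18 for Usp18 and −0.10 for Trim25. In the unblocked fit, other members called only with the block also shifted with 1 library. Irf1 moved to −0.08 without Helios- replicate 3 and to −0.09 without Helios- replicate 4, and Parp9 to −0.12 without Helios- replicate 1. Leaving out 1 library of a pair unbalances what the pair shares. No library was left out with the block, so these shifts do not test its calls. Within groups, the SD of the log2 values had a median of 0.22 over the 40 and of 0.20 over all genes tested. It was 0.94 for Oas2, 0.88 for Mx1, 0.65 for Rsad2 and 0.61 for Ifit3, and 0.07 for Sp100 and Irf9. In Oas2 the highest Helios+ library held 4.90 times the lowest, and the highest Helios- library 6.68 times. Part of that spread went with the replicate number. Its pair differences ran from −2.15 to −0.87 on the log2 scale, with an SD of 0.48.

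**Figure D4:**
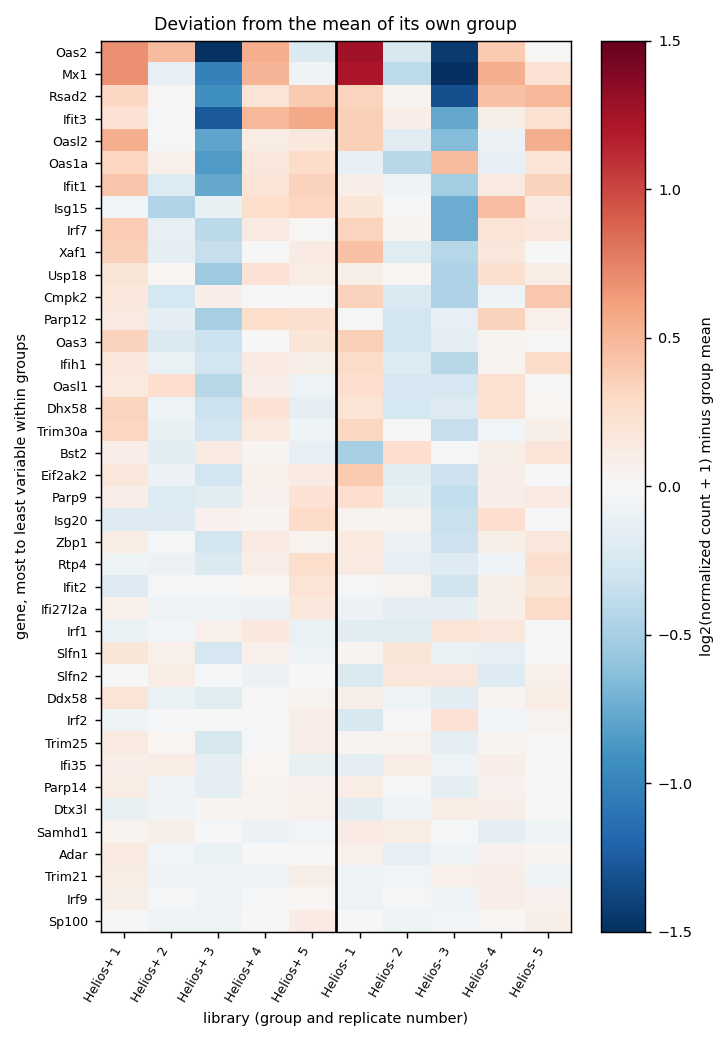
Deviation of log2(normalized count + 1) from the mean of its own group for the 40 genes (rows, most to least variable) in the Helios+ (left) and Helios- (right) libraries, with colours cut at ±1.5. Replicate 3 is blue in both groups for the most variable genes, with the exception of Oas1a in Helios- cells, and replicate 1 is mostly red.

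Genes that make or carry the interferon signal were looked up in a list of 41, of which 35 were in the table and 33 tested. Limma called 7 higher and 5 lower (36.4%, against 24.8% of all genes), and the median log2 change was −0.02. With the block 9 were higher (27.3%, background 18.9%) and 8 lower (24.2%, background 18.5%). The type I receptor subunit Ifnar2 was higher, at 734 ± 52.8 (Helios+) against 539.8 ± 41.9 (Helios-) normalized counts (SD, n = 5 each; limma adjusted p = 0.000284). Its partner Ifnar1 had 1252 ± 109 (Helios+) against 1434 ± 101 (Helios-) normalized counts (SD, n = 5 each) and was called lower only with the block (adjusted p = 0.0652 in limma and 0.00346 with the block). The interferon gamma receptor subunit Ifngr2 was lower, at 222 ± 20.9 (Helios+) against 312 ± 17.3 (Helios-) normalized counts (SD, n = 5 each).

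Among the kinases Jak1 was lower, at 5903 ± 301 (Helios+) against 7723 ± 798 (Helios-) normalized counts, and Jak2 higher, at 1262 ± 55.0 (Helios+) against 1039 ± 61.5 (Helios-) normalized counts (SD, n = 5 each; limma adjusted p = 0.00212 and 0.00329). Tyk2 had 565 ± 72.7 (Helios+) against 469 ± 59.1 (Helios-) normalized counts (SD, n = 5 each). It was called higher only with the block (adjusted p = 0.0662 in limma and 0.0007 with the block). Stat2, itself interferon-induced, had a log2 change of 0.01 (95% interval −0.30 to 0.33) and was called in neither fit. Of the factors and adaptors, Irf5 rose by 0.72 ± 0.11 and Tmem173 (STING) by 0.34 ± 0.09 (SE). The feedback inhibitor Socs3 had the largest log2 change among the 33 tested, at 233 ± 38.8 (Helios+) against 583 ± 92.3 (Helios-) normalized counts (SD, n = 5 each; limma adjusted p = 1.81e-06). Ifng, the gene of interferon gamma, was under the abundance minimum, at 18.9, 12.5, 6.84, 5.83 and 10.4 normalized counts in Helios+ replicates 1 to 5, against 4.69, 1.06, 2.18, 0.855 and 3.89 in Helios- replicates 1 to 5.

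A second list held 57 further interferon-stimulated genes, of which 47 were in the table and 42 tested. Limma called 3 higher (Tor3a, Slfn9 and Tdrd7) and 7 lower, with a median log2 change of −0.13. Higher were 7.14%, against 14.1% of all genes, and lower 16.7%, against 10.7%. The call of Tdrd7 was ended by leaving out any of 8 single libraries. With the block 5 were higher (11.9%, background 18.9%) and 14 lower (33.3%, background 18.5%). Besides Slfn5, the lower genes were Epsti1, Pyhin1, Trim56, Zc3hav1, Ifi47 and Znfx1. Epsti1 had 1625 ± 74.4 (Helios+) against 2155 ± 127 (Helios-) normalized counts, and Pyhin1, a DNA-binding protein of the Ifi200 family, had 1882 ± 58.2 (Helios+) against 2447 ± 162 (Helios-) normalized counts (SD, n = 5 each; limma adjusted p = 0.000157 and 0.000322). Ifitm2, under the abundance minimum and so not tested, had 11.7 to 19.7 normalized counts in Helios+ and 1.71 to 5.86 in Helios- libraries. The groups overlapped for the other untested genes, Ifi204, Ifi205, Ifitm1 and Slfn4.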

How the data were processed

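RNA-seq of sorted mouse Treg cells was analysed in 5 Helios+ and 5 Helios- libraries. Per the labels' protocols, RNA was column-purified with DNase I and libraries came from a stranded total RNA kit for picogram input. The submitters' processing notes name mm10, HISAT2 2.0.4, HTSeq and DESeq2, without roles. The sources used here do not give the annotation or strand setting. The authors deposited a signal, normalized counts of 13252 genes. All values (100%) were whole multiples of the library's smallest value within a tolerance of 0.001, so whole reads were recovered.

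Members and lists were chosen with earlier results of these data known. Genes with a mean of at least 10 (10718) were tested with limma 3.58.1 (R 4.3.3, trend and robust) on log2(normalized count + 1), group only, and Benjamini-Hochberg adjustment. The pseudocount understates changes of low genes. The rule for named genes took called members, those whose call the block changed, and the most abundant of each role per kilobase of GENCODE M21 exon. Limma, edgeR, DESeq2 and limma-voom, all without the block, were tested on simulated counts that held no replicate effect. The block was not tested in this way. Same-numbered libraries deviated together (correlations 0.48, 0.19, 0.39, 0.16 and 0.15 for numbers 1 to 5, minimum set at 0.1), so they were taken as pairs. Between different numbers the highest correlation was 0.12, for 3 and 5. It also passed that minimum and was close to the 0.15 of number 5. Alternatives were the replicate block, scalings, filters, pseudocounts, edgeR 4.0.16, DESeq2 1.42.0 and limma-voom on the recovered reads, and libraries left out. On the recovered reads edgeR's quasi-likelihood test called 1563 genes higher and 1080 lower, against 1512 and 1143 with limma. Oas1b, Ifnar1, Tyk2, Stat2, Ifng and the untested genes of the second list were named outside this rule, after their values were seen. Oas1g and Ifit3b values were not analysed here.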

Additional observations from a re-analysis of the deposited data

Results flagged for a closer look

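Each member was searched in each group of 5 libraries for a library far from the others, where the gap to its nearest neighbour exceeded 0.71 of the group's range on the log2 scale. Chance alone would find about 1 in 20 groups if values were independent and normally distributed. Here 7 of 80 were found, all of them the lowest library and all of them replicate 3. The searches share the same 10 libraries and many members moved together, so this count cannot be tested against that rate. In Helios+ replicate 3, Oas1a had 70.9 normalized counts (nearest library 136), Rsad2 20.5 (nearest 40.1) and Usp18 148 (nearest 221). In Helios- replicate 3, Ifit3 had 89.6 (nearest 163), Irf7 166 (nearest 286), Rsad2 10.9 (nearest 29.6) and Trim25 849 (nearest 949.8). Rsad2 was the member found in both groups.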

How the results depend on the processing

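Counts of called members stayed within 1.5 times of those reported (4 higher, 11 lower) under every alternative but the replicate block, which called 21 lower. Of the other pathway genes, 10 were higher (13.3%, background 14.1%) and 12 lower (16%, background 10.7%). With the block 22 were lower (29.3%, background 18.5%). With 1 library left out, or both of a number, 3 to 4 members were higher (7.5% to 10%) and 9 to 15 lower (22.5% to 37.5%). Pathway genes numbered 8 to 12 higher (10.7% to 16%) and 10 to 16 lower (13.3% to 21.3%). In the same fits, 11.1% to 15.1% of all genes were higher and 6.98% to 12.1% lower. Of the 15 called members, 9 kept their call under all 26 alternatives and 6 lost it in at least 1 (Isg20, Oas2, Slfn2, Samhd1, Irf9 and Parp12), with the cause not tested, and none changed sign. Over its alternatives the adjusted p was 0.0172 to 0.201 for Isg20 and 2.72e-07 to 0.114 for Oas2. No scaling moved the median of all genes by 0.1. The block changed no call of a member beyond the 11 given above. Sign changes occurred in 7 uncalled members. Quantile normalization gave −0.066 for Isg15, 0.019 for Irf2, 0.0054 for Trim30a and 0.0089 for Adar, and cyclic loess gave 0.015 for Irf2, 0.019 for Trim30a and 0.010 for Adar. With libraries left out, the log2 change ran from −0.092 to 0.21 for Isg15, −0.12 to 0.044 for Dhx58, −0.18 to 0.053 for Oasl1, −0.073 to 0.145 for Xaf1 and −0.13 to 0.036 for Trim30a. Precision was lowest for Oas2 (SE 0.51), Mx1 (0.49), Rsad2 (0.34) and Ifit3 (0.33).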
